A study of Homo sapiens and Mus musculus with 9 samples.

Results

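The human mitochondrial genome is a small circle that encodes 37 genes, of which 2 are ribosomal RNAs, 13 are messenger RNAs for subunits of the respiratory chain and 22 are transfer RNAs. It is copied into long RNAs from promoters in a noncoding control region, 1 for each strand, and the tRNAs that lie between the other genes are cut out to release them. Most genes are read from the plus strand of the reference, whereas ND6 and 8 tRNAs are read from the minus strand. Transcription of the minus strand also gives short RNAs of the control region, the 7S RNA and the primer for replication, while most other RNA from that strand is normally degraded.

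Here all peaks on the mitochondrial genome were taken from the 4 deposited peak lists of an enhanced UV crosslinking and immunoprecipitation study (eCLIP) of the pregnane X receptor (PXR), a ligand-activated transcription factor that responds to many drugs. There were 38 such peaks among 5884, with 10 of 1557 in the HepG2 list, 13 of 2103 and 7 of 46 in a pair of LS174T lists and 8 of 2178 in the liver list. HepG2 is a human hepatocellular carcinoma line, whose 2 PXR immunoprecipitates (IPs) were made with an antibody to the HA tag. LS174T is a human colorectal adenocarcinoma line, used as wild-type cells (an input and an IP with an antibody to PXR) and as PXR knockout cells (an IP with the same antibody). The liver came from mice that carry human PXR, with 2 IPs by the PXR antibody, and HepG2 and liver each had 1 input without antibody. All 9 samples were crosslinked with UV light and digested with RNase I. The sources used here do not give how the tagged PXR was expressed, whether the knockout is 1 clone, how the mice were humanized, or their age and number.

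The LS174T lists, 1 of 2103 and 1 of 46 peaks, are referred to as WT-named and KO-named sets. Their names and the peak names in them read wild type and knockout, but the record ties the WT-named set to the wild-type input and the KO-named set to the wild-type PXR IP. They are therefore compared as 2 sets of peaks, without a direction from wild type to knockout or from input to IP. Each list is 1 set of peaks with no value per library, so no spread between replicates is known and no test between conditions was possible. Intervals below are 95% intervals for counting error only, since any PCR copies of a read that were not removed are counted with it.

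Reads behind a peak were worked out from the deposited fold and p-value and are given as the number covering the summit after each read was extended to 200 bases. The reads of the 10000-base window around the summit, which set the caller's background, came from the same solution. By summit reads the mitochondrial peaks held 17.1% of the reads in all HepG2 peaks, 24.9% in the WT-named set, 42.8% in the KO-named set and 12.2% in liver. Their median depth was 650, 288, 193 and 771 reads in the same order, against 9, 11, 16 and 13 for all other peaks. In each list exactly 1 peak was deeper than the deepest mitochondrial peak. Of 10 hepatocyte marker genes none had a HepG2 peak, and of 10 colon epithelium genes 6 had a WT-named peak, 2 a HepG2 peak and none a KO-named peak. Of the hepatocyte genes 1, HNF4A, had a WT-named peak. Of all nuclear protein-coding genes 5.45% had a HepG2 peak, 7.22% a WT-named peak and 0.11% a KO-named peak. These shares were not matched to the markers for expression. The marker counts do not bear out the HepG2 label, and whether they go against it was not tested.

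The strand given to a peak could be read against nuclear genes. Among peaks whose summit lay in a single protein-coding gene of known strand, 730 of 840 in HepG2 (86.9%), 1233 of 1286 in the WT-named set (95.9%) and 14 of 14 in the KO-named set (100%) lay on the strand of the gene. A plus or minus peak is therefore described as RNA of that strand. The direction of the extension also showed at short nuclear RNA genes of at most 200 bases. Of 42 peaks with at least 10 reads at 1 such gene, 29 had only their upstream edge inside the gene and 7 only their downstream edge. The upstream edge alone lay inside for 15 of 16 peaks in HepG2, but for 13 of 24 in the WT-named set. There 6 had only the downstream edge inside and 5 neither. In the KO-named set it was 1 of 2, so the pattern was clear in HepG2 only. The upstream edge (the start of a plus peak, the end of a minus peak) is thus given beside the summit, because in a peak barely wider than 200 bases the reads begin near that edge and the summit may fall in the next gene.

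Of the 30 human mitochondrial peaks, 20 lay on the plus strand, and all 20 had their summit in a gene read from that strand. Counted by the summit, 11 peaks lay in rRNA genes, 11 in mRNA genes, 6 in tRNA genes and 2 outside genes. Counted by the upstream edge, 11 lay in rRNA genes, 5 in mRNA genes, 12 in tRNA genes and 2 outside genes. The numbers for mRNA and tRNA genes thus depended on that choice, and those for rRNA genes did not. All 12 edges in tRNA genes were on the strand of the tRNA, in 6 different genes, and lay between base 11 and base 36 of the tRNA. The tRNAs concerned were those for glycine (TRNG), histidine (TRNH), leucine (TRNL2), methionine (TRNM), tyrosine (TRNY) and proline (TRNP), and 10 of these 12 peaks were at most 220 bases wide.

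**Figure D1:**
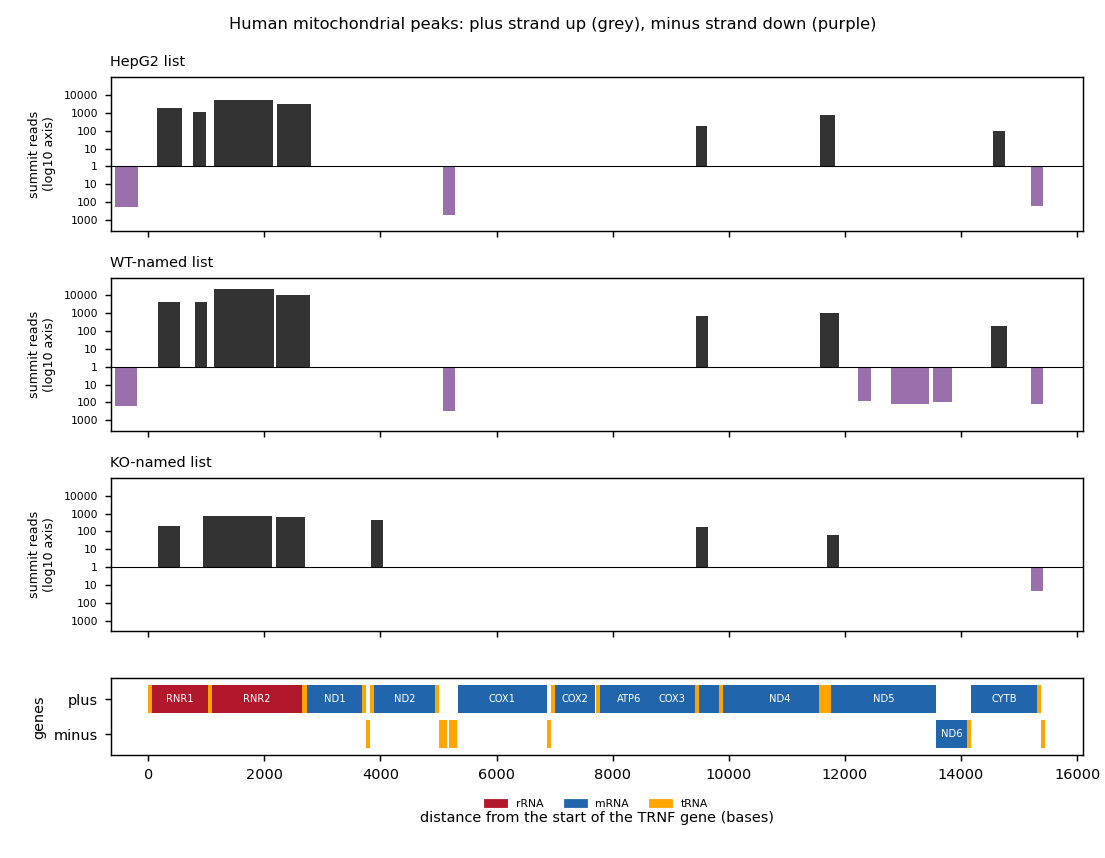
Peaks of the 3 human lists along the mitochondrial genome, with distance in bases from the start of the TRNF gene on the x axis and reads at the summit on a log axis, plus strand upward and minus strand downward, above a map of the 37 genes. The deepest block lies over RNR2 in every list, and no peak lies over COX1, COX2, ATP8, ATP6, COX3, ND4L or ND4.

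RNR2 carried the deepest site in every human list. RNR1 (positions 648 to 1601, hg38) encodes the RNA of the small mitochondrial ribosomal subunit and RNR2 (1671 to 3229) that of the large one. The RNR2 peak from 1708 to 2731 in HepG2 had 5464 reads at its summit, the WT-named peak from 1708 to 2736 had 23957, and the KO-named peak from 1522 to 2712, which also took in the end of RNR1 and the valine tRNA, had 780. Their summits fell at 2418, 2422 and 2422, within 4 bases of each other. RNR2 has near-identical nuclear copies, and 1 of them, MTRNR2L1, had a peak of 851 reads in the WT-named set and 13 in the KO-named set. At another position, a HepG2 peak of 20 reads overlapped 1 end of that copy, with its summit outside it. Peaks covered 93.6%, 94.6% and 95.4% of RNR2 and 68.6%, 63.1% and 48.3% of RNR1 in HepG2, WT-named and KO-named order.

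A further site ran from the end of RNR2 over the leucine tRNA TRNL1 (3230 to 3304). It began at 2794 in HepG2 and at 2784 in the LS174T lists, with 3158 reads in HepG2, 10515 in the WT-named and 634 in the KO-named set. Relative to the deepest RNR2 site of the same list, this was 57.8%, 43.9% and 81.3%. In HepG2 and the WT-named set its end, at 3382 and 3360, reached into ND1, a subunit of complex I, and covered 7.95% and 5.65% of that gene. The upstream RNR1 site held 1782, 4093 and 193 reads, or 32.6%, 17.1% and 24.7% of the deepest site. A downstream RNR1 site of 1167 reads in HepG2 and 4449 in the WT-named set had no separate peak in the KO-named set, where the RNR2 peak began at 1522.

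The fold of the rRNA peaks was low for their depth. It was 2.60 at the downstream RNR1 site of HepG2 and 2.36 at the upstream site of the WT-named set, and at the deepest RNR2 sites it was 12.1 and 13.6. The window around each contained the other rRNA sites. The deepest RNR2 summit held 24.2% of its window in HepG2, 27.3% in the WT-named and 18.7% in the KO-named set. Reads rather than folds are therefore compared here.

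Messenger RNA sites were few. On the plus strand those reaching ND2, ND3 and ND5 began in a tRNA gene upstream of the mRNA gene. Those at CYTB on the plus strand and at ND6 on the minus strand began within the gene, and those reaching ND1 began in RNR2. At TRNG (9991 to 10058) and ND3 (10059 to 10404), another complex I gene, the peaks ran from 10007 to 10207 in HepG2, from 10005 to 10221 in the WT-named set and from 10004 to 10222 in the KO-named set. They held 187, 664 and 189 reads (intervals 161 to 216, 614 to 716 and 163 to 218). The KO-named set, which had fewer reads than HepG2 at every rRNA site, thus stood level with it here. Relative to the deepest RNR2 site the reads were 3.42% in HepG2, 2.77% in the WT-named set and 24.2% in the KO-named set.

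The tRNA cluster before ND5 was covered in all human lists. The HepG2 peak began in TRNH at 12154 and ran over the serine tRNA TRNS2 and TRNL2 to 12406, with 736 reads. The WT-named peak ran from 12155 to 12475, with 1029 reads and its summit in TRNL2. The KO-named peak was 200 bases wide, from 12276 to 12475, with 65 reads, and did not include TRNH or TRNS2. The site stood at 13.5%, 4.30% and 8.33% of the deepest RNR2 site. CYTB (14747 to 15887), the mitochondrial subunit of complex III, carried a plus-strand peak with 98 reads in HepG2 and 193 in the WT-named set, the shallowest plus-strand site of either, and none in the KO-named set.

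The site that the KO-named set did not share with the other human lists started in TRNM (4402 to 4469), the methionine tRNA before the complex I gene ND2 (4470 to 5511). It ran from 4419 to 4621 with its summit at 4471, the second base of ND2, and held 439 reads (interval 399 to 482), which was 56.3% of the deepest RNR2 site of that list. Whether the WT-named set had reads there is not known, since only called peaks are listed. With the window count of its nearest site, the one at TRNL1, a WT-named peak would have needed at least 1943 reads to reach the lowest −log10 p in that list (5.10), and a HepG2 peak 552 reads. Scaled from the KO-named set by the ratio of the lists at RNR2, the site would have had 13483 reads in the WT-named set, and by the ratio at TRNG 1542, which lie on opposite sides of that limit.

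**Figure D2:**
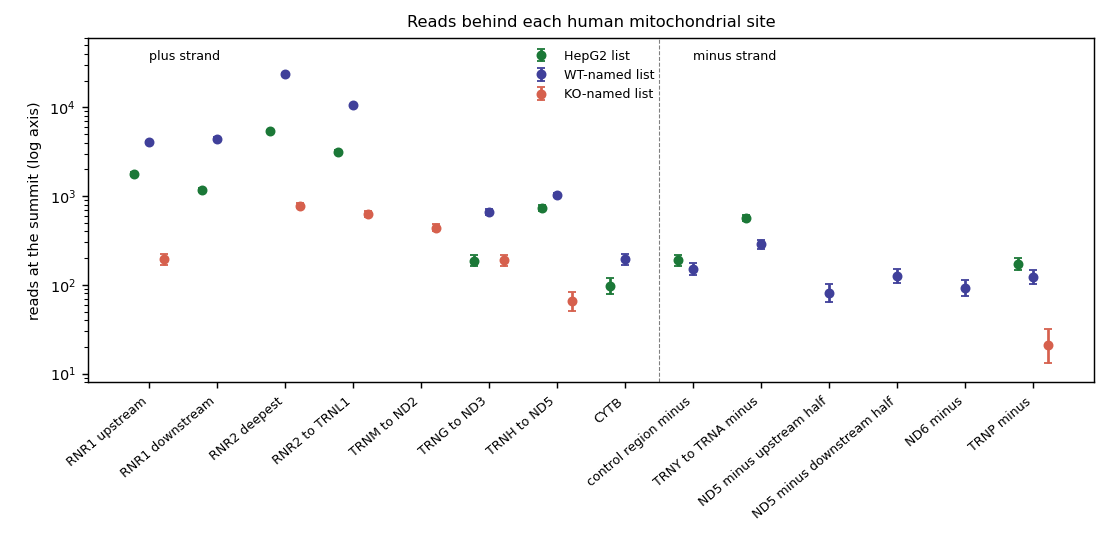
Reads at the summit of each human mitochondrial site on a log axis, by list, with 95% Poisson intervals. The RNR2 site is deepest in each list, from 780 to 23957 reads, the TRNM to ND2 site occurs in the KO-named set with 439 reads, and at the 3 minus-strand sites shared with HepG2 the WT-named point is the lower of the pair.

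In all, 21 of the 37 genes were touched by a peak of at least 1 human list, among them both rRNA genes, 6 mRNA genes and 13 tRNA genes. The 16 genes without any were COX1, COX2 and COX3 of complex IV, ATP6 and ATP8 of the ATP synthase, ND4 and ND4L of complex I, and the tRNA genes TRNF, TRNI, TRNQ, TRNW, TRNS1, TRND, TRNK, TRNR and TRNE. By the summit 11 genes were hit. A gene without a peak is not shown to be without reads, and in the part of the genome around the rRNA genes the window counts above made the limit for a call high.

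The minus strand carried 3 of 10 mitochondrial peaks in HepG2, 6 of 13 in the WT-named set, 1 of 7 in the KO-named set and 3 of 8 in liver. Over all peaks of these lists the minus strand held 46.9%, 49%, 39.1% and 49.4%. The 95% Clopper-Pearson intervals of the mitochondrial shares were wide, from 6.67% to 65.2% in HepG2 and from 19.2% to 74.9% in the WT-named set, and contained the shares of all peaks. Counted by reads, minus-strand sites made up 6.84% of the mitochondrial summit reads in HepG2, 1.89% in the WT-named set, 0.905% in the KO-named set and 3.63% in liver.

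A first minus-strand site lay in the control region, outside all genes. It ran from position 1, where the linear reference cuts the circle, to 394 in HepG2 and 390 in the WT-named set. It held 189 and 152 reads (intervals 163 to 218 and 129 to 178), which were 64.9% and 69.7% of all minus-strand reads in its window. That window is cut short at position 1 and leaves out reads across the cut, such as those at TRNP, which raises these shares. This part of the control region lies just downstream of the promoter for the minus strand. The KO-named set had no peak there.

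The deepest minus-strand site of HepG2 covered the cluster of tRNA genes for tyrosine, cysteine (TRNC), asparagine (TRNN) and alanine (TRNA), which are read from the minus strand and flank the origin of light-strand replication. Its edge lay in TRNY at 5859 in HepG2 and 5858 in the WT-named set, and the peaks ended in TRNA at 5650 and 5653. HepG2 held 565 reads (interval 519 to 614) and the WT-named set 288 (interval 256 to 323), or 10.3% and 1.20% of the deepest RNR2 site. The peak span took in TRNC and TRNN in full in both lists. The peaks were only 210 bases wide in HepG2 and 206 in the WT-named set. Their summits, at 5841 and 5842, lay in TRNY as the edges did. Because each read was extended before peaks were called, the span over TRNC and TRNN does not by itself show reads from these genes. Whether any reads began in them was not tested.

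TRNP, the proline tRNA gene (15956 to 16023) next to the control region, marked the minus-strand site found in all 3 human lists. The edges at 15989 in HepG2, 15988 in the WT-named set and 15994 in the KO-named set lay inside this gene, and the peaks were 208, 201 and 215 bases wide. The summits at 15812, 15825 and 15829 fell opposite the end of CYTB, after the peaks had crossed the threonine tRNA gene TRNT, which is read from the other strand. The site held 171, 124 and 21 reads (intervals 146 to 199, 103 to 148 and 13 to 32.1). By its summit the site would be called antisense to CYTB, and by its edge it starts in a tRNA of its own strand.

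The WT-named set had 3 further minus-strand peaks around ND6, the complex I gene read from that strand (14149 to 14673). The peak from 14096 to 14425 covered 52.8% of ND6, with 93 reads. The peaks from 13369 to 14028, with 125 reads, and from 12803 to 13025, with 81 reads, lay beyond the end of ND6, opposite ND5, and together covered 51.7% of the ND5 span on the strand opposite to ND5 when the ND6 peak's overlap is included. These 3 peaks had folds from 3.05 to 4.78 and held 6.26% to 9.85% of their windows. Neither HepG2 nor the KO-named set had a peak here.

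With overlapping peaks merged, the human lists held 13 sites, of which 6 were in 3 lists, 3 in 2 lists and 4 in 1 list. All 10 HepG2 peaks overlapped a WT-named peak on the same strand, where 38.5% of all HepG2 peaks did, and 10 of 13 WT-named peaks overlapped a HepG2 peak, where 28.6% of all WT-named peaks did. Of the 7 KO-named peaks 6 overlapped a WT-named peak and 6 a HepG2 peak, against 95.7% and 78.3% of all KO-named peaks. In turn 7 of 13 WT-named and 7 of 10 HepG2 peaks met a KO-named peak, against 2.14% and 2.38% of all peaks of those lists. The mitochondrial peaks were also far deeper than the median peak, and depth was not matched in this comparison.

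Between the LS174T lists the reads did not differ by 1 common factor. The WT-named set held 30.7 times the reads of the KO-named set at the deepest RNR2 site (interval 28.6 to 33.0), 21.2 times at the upstream RNR1 site (18.4 to 24.6), 16.6 times at the TRNL1 site (15.3 to 18.0) and 15.8 times at the TRNH to ND5 site (12.3 to 20.7). At TRNG and ND3 the ratio was 3.51 (2.98 to 4.15), and at TRNP 5.90 (3.70 to 9.88). The intervals of the last 2 sites did not reach those of the others, counting error alone being covered. The window counts gave 21.1 to 21.2 around the rRNA sites and 10.5 to 10.9 around the TRNG and TRNH sites, so the windows around these mRNA and tRNA sites had about the same ratio while the summits at TRNG and TRNH did not. For TRNP the window ratio was 22.3, unlike the summit ratio. If the 6 WT-named sites without a KO-named partner had followed the TRNP ratio they would have held 13.7 to 48.8 reads in the KO-named set, and by the RNR2 ratio 2.64 to 9.38. With the window of the TRNP site, a KO-named minus-strand peak would have needed at least 10 reads to reach the lowest −log10 p of that set (7.59), and with the window of the TRNH to ND5 site a plus-strand peak 28 reads. All 6 sites would have passed these limits by the TRNP ratio and none by the RNR2 ratio, the local windows of the sites themselves being unknown.

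The ratio of the WT-named set to HepG2 was above 1 at every shared plus-strand site and below 1 at the 3 shared minus-strand sites. At the 4 rRNA sites the WT-named set held 2.30 to 4.38 times the HepG2 reads, and at the mRNA and tRNA sites of the plus strand 1.40 times at TRNH, 1.97 times at CYTB and 3.55 times at TRNG. At the minus-strand sites it held fewer, 0.804 times at the control region (interval 0.645 to 1.00), 0.510 times at TRNY (0.441 to 0.588) and 0.725 times at TRNP (0.571 to 0.919). The window ratio at TRNP was 1.59, above 1 where the summit ratio was below it. Each ratio compares 1 list with 1 other, of unequal depth and from different cells, and not conditions with replicates.

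**Figure D3:**
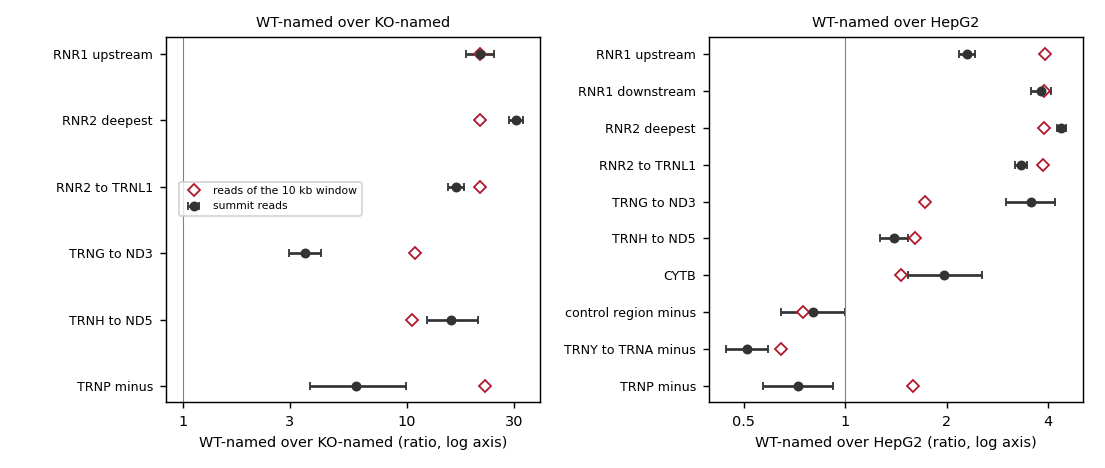
Ratio of WT-named reads to KO-named reads (left) and to HepG2 reads (right) at each shared site on a log axis, with 95% intervals for summit reads as filled points and the ratio of the 10000-base windows as diamonds. On the left TRNG to ND3 stands at 3.51 against 16.6 to 30.7 at the rRNA sites, and on the right the 3 minus-strand sites have summit ratios below 1.

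Window reads around the deepest rRNA site and around the TRNH to ND5 site were set side by side across the lists. In the human lists the first window also takes in ND1, ND2 and most of COX1. The second is centred on a tRNA gene in HepG2 and the WT-named set. Their quotient is therefore not one of rRNA to mRNA reads. The window around the deepest rRNA site held 22582 plus-strand reads in HepG2, 87791 in the WT-named set, 4163 in the KO-named set and 90092 in liver. That around the TRNH to ND5 site, or its liver counterpart, held 2717, 4375, 418 and 812. The quotient was 8.31 in HepG2 (interval 7.99 to 8.65), 20.1 in the WT-named set (19.5 to 20.7), 9.96 in the KO-named set (9.00 to 11.0) and 111 in liver (104 to 119). Liver thus had the largest quotient of the 4 lists. Its plus-strand peak with the summit at 15382 had the same window count, 812, as that with the summit at 11802. No plus-strand reads were therefore counted in the stretch that only the window around 11802 takes in. The liver quotient rests on that window, and the cause of the gap was not tested. Both windows are cut short by an end of the linear reference. Differences in RNA content and in recovery cannot be told apart in them.

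Liver peaks were set against the human ones by position, since the order of the genes is the same in the mitochondrial genomes of mouse and human. The mouse reference begins at the phenylalanine tRNA gene, so human positions were counted from the start of TRNF by subtracting 576. No mouse annotation was used, liver peaks carry no gene names here, and gene lengths differ somewhat between the species. On this scale 7 of 8 liver peaks overlapped a human peak of the same strand, 4 of 5 on the plus strand and 3 of 3 on the minus strand. Human plus-strand peaks together covered 22.2% of the span from TRNF to TRNP, and minus-strand peaks 10.6%. Without the subtraction 4 of 8 overlapped.

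The deepest liver site ran from 1146 to 2094 (mm10) with 31100 reads, where the HepG2 RNR2 peak ran from 1132 to 2155 on the shifted scale, so that the upstream edges lay 14 bases apart. The summits were 503 bases apart, at 1339 in liver and 1842 in HepG2. The liver site from 212 to 580, with 3644 reads, matched the upstream RNR1 site, and that from 2263 to 2557, with 6129 reads, matched the site at the end of RNR2. They stood at 11.7% and 19.7% of the deepest liver site. No liver peak met the downstream RNR1 site. The liver peak from 11626 to 11913, with 395 reads (interval 357 to 436), overlapped the shifted WT-named TRNH to ND5 peak from 11579 to 11899 and held 48.6% of its window.

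On the minus strand the liver site from 4836 to 5241 overlapped the shifted HepG2 peak over TRNY to TRNA, with upstream edges 42 and summits 230 bases apart. It held 1147 reads (interval 1082 to 1215), or 90.5% of the minus-strand reads in its window, and its fold of 43.6 was the highest among the 38 mitochondrial peaks. The liver site from 15179 to 15388, with 352 reads, overlapped the TRNP peak of all 3 human lists, with its edge 30 and its summit 20 bases from those of the KO-named peak. A shallow liver site from 13153 to 13434, with 60 reads, lay within the shifted WT-named peak from 12793 to 13452 beyond ND6, with edges 18 and summits 4 bases apart. The liver peak from 15322 to 15525 on the plus strand, with 138 reads, met no human peak. The liver list held none at the shifted places of TRNM, TRNG or the human plus-strand CYTB site. The shifted TRNG site lies in the stretch where the liver window counts left no plus-strand reads. No peak could be called there, so the species cannot be compared at that site.

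**Figure D4:**
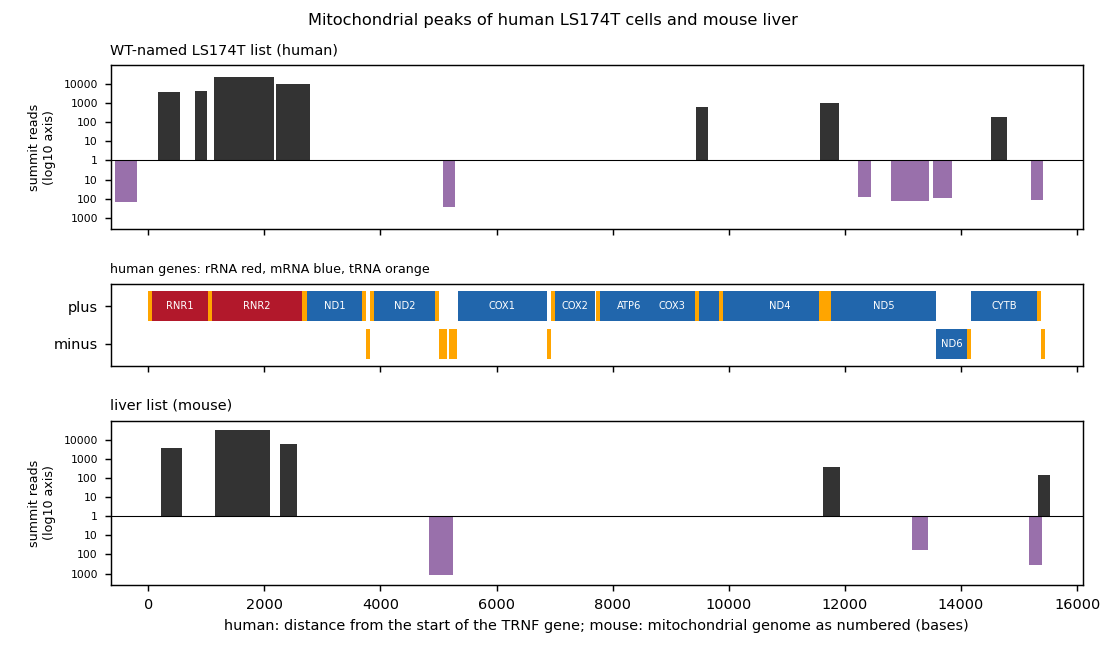
Mitochondrial peaks of the WT-named LS174T list (top) and of mouse liver (bottom) on a common scale in bases, human positions counted from the start of TRNF and mouse positions as numbered, with summit reads on a log axis, plus strand up and minus strand down. Of the 8 liver blocks, 7 overlap a human block of the same strand in at least 1 human list, and the exception is the plus-strand block at the right end with 138 reads.

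Nuclear genes that serve the mitochondrion were counted by the presence of a peak. Of 87 nuclear genes whose symbols mark respiratory chain subunits or factors, 12 had a HepG2 peak (13.8%, interval 7.34 to 22.9%) and 21 a WT-named peak (24.1%, interval 15.6 to 34.5%), where 5.45% and 7.22% of all nuclear protein-coding genes did. COX8A, a subunit of complex IV, held 20 and 11 reads in HepG2 and the WT-named set, COX7C 16 and 19, COX6C 17 and 9, COX6B1 8 and 14, COX5A 8 and 14, ATP5MC2 13 and 21, and ATP5F1B 13 and 34. The COX8A peaks of HepG2 and the WT-named set lay at different positions and did not overlap. The ATP5F1B peak overlapped the small nucleolar RNA gene SNORD59B. The HepG2 count names both NDUFC2 and the overlapping readthrough gene NDUFC2-KCTD14 for 1 peak. The shares of all nuclear protein-coding genes were not matched to these members for expression.

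Among 77 mitoribosomal protein genes 5 had a HepG2 peak (6.49%) and 4 a WT-named peak (5.19%), close to the shares of all genes, and MRPL41 was the member in both, with 19 and 12 reads. Among 30 genes for mitochondrial RNA synthesis, processing and stability 3 had a peak in each, LRPPRC, an mRNA stability factor, with 6 and 8 reads, GRSF1, an RNA granule protein, with 6 and 13, TFB1M, an rRNA methyltransferase, with 4 in HepG2, and FASTKD4 (TBRG4 in the gene table) with 64 in the WT-named set. The last peak overlapped the small nucleolar RNA gene SNORA5A. The KO-named set had no peak in any of these lists, and 0.11% of all nuclear protein-coding genes had one there.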

How the data were processed

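The authors deposited 4 peak lists from 9 samples. The builds were hg38 and mm10 and the tools named are BWA, MACS2 and cutadapt, per the submitters' processing notes; versions and settings are not given in the sources used here. Every deposited peak has a fold enrichment ratio, a p-value and a q-value as −log10, and a score, which in all 5884 rows is 10 times the −log10 q without its decimals. The strands were called separately, as the deposited peak names show. Whether IP replicates were pooled is not given in the sources used here.

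Reads n and background λ were solved so that (n + 1) / (λ + 1) gave the fold and the Poisson chance of exceeding n gave p, with λ a multiple of 0.02 (200 of 10000 bases). All 38 mitochondrial peaks and 5882 of 5884 in all had 1 solution. Tested on simulated data, 200 of 200 peaks of 3 to 100 reads and 200 of 200 of 100 to 30000 reads were recovered. Depth per library is unknown. Human genes and positions (1-based) come from the RefSeq table of GRCh38. Gene strand came from its promoter table for nuclear genes and from textbook knowledge for mitochondrial ones. Nuclear genes were assigned by summit without strand. Overlap means at least 1 base on the same strand. Intervals are Clopper-Pearson or exact Poisson; that of a ratio comes from the exact binomial share. Python 3.11.15 and SciPy 1.17.1 were used. All 37 genes are accounted for, and of the nuclear lists those members are named that have a peak in at least 2 human lists or the most reads in 1. Members and lists were chosen with earlier results of these data known, and no mitochondrial sequence was used here.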

Additional observations from a re-analysis of the deposited data

Results flagged for a closer look

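Pieces of the mitochondrial genome copied into nuclear chromosomes carry near-identical sequence, and peaks in them lay outside the mitochondrial count. Within 1000 bases of an annotated nuclear copy there were 8 HepG2 peaks (0.514% of the list, where a count of 0 allows up to 0.193%) and 9 WT-named peaks (0.428%, against 0.143%), and 1 KO-named peak (2.17%, below the 6.52% that a count of 0 allows). The share of peaks that lies near such copies by chance was not tested. The deepest lay in MTRNR2L1, a copy of RNR2 on chromosome 17, with 851 reads in the WT-named set (22524410 to 22524636) and 13 in the KO-named set. A HepG2 peak of 20 reads (22523253 to 22523521) only overlapped 1 end of that copy, with its summit outside it. On chromosome 1, a plus-strand peak between the copies of ND2 and COX1 (MTND2P28 and MTCO1P12) held 70 reads in HepG2 and 256 in the WT-named set. How the aligner divided reads between these copies and the mitochondrial genome was not tested.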

How the results depend on the processing

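The peaks per list, the minus-strand peaks and the shared mitochondrial peaks stayed within 1.5 times their main value with −log10 q of at least 5, at least 10 reads, overlap of at least 50% of both peaks, or overlap on either strand, as far as each was run for them, and reads solved without the whole-window condition were the same. Of 58 alternatives 47 left a count within 1.5 times or a share within its interval, and the other 11 are given here. Counting genes touched by the peak span in place of the summit gave 17 genes in HepG2, 18 in the WT-named and 13 in the KO-named set, against 6, 8 and 6, by construction. The mitochondrial share from distinct 10000-base windows was 22% in HepG2, 49.9% in the WT-named set, 57.1% in the KO-named set and 21.2% in liver, against 17.1%, 24.9%, 42.8% and 12.2%; the cause was not tested. The share of nuclear peaks on the strand of their gene rose to 90% in HepG2 with −log10 q of at least 5, and with at least 10 reads to 92.6% in HepG2 and 97.4% in the WT-named set. Positions as numbered left 4 of 8 liver peaks with a human partner in place of 7. The upstream-edge assignment, the comparison of numberings and the 10-read limit on nuclear peaks were chosen after seeing the data. No paired analysis was possible because the lists carry no value per library, and for the same reason no replicate could be left out.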
